A study of Mus musculus with 44 samples.

Results

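The 9 genes described here are Trp53, which encodes the transcription factor p53, and 8 genes it is known to regulate: Mdm2, Cdkn1a, Bax, Bbc3, Ccng1, Eda2r, Phlda3 and Zmat3. They were chosen by name, and they are 9 of the 23413 genes that the RNA and single-cell tables list together. All 9 were listed in the tumor table, in the line table and in the single-cell library labelled fGTS2, and 8 of 9 in the library labelled GTML_SOX9-GFP, where Eda2r was not listed. In open chromatin, 25 of 88981 regions of the table of lines and GTS sources lay within 10 kb of a start of these genes, and 20 of 88258 regions of the table of GFP and nonGFP fractions.

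The series concerns mouse medulloblastoma, a tumor of the cerebellum, and its recurrence from SOX9-positive cells. In the published GTML model, MYCN under tetracycline control is driven from the promoter of the glial transporter gene Glt1, and doxycycline switches it off; the published GTS model adds a second, doxycycline-dependent activator under the Sox9 promoter. Bulk RNA came from 6 GTS and 8 GTML tumors, labelled with no treatment, and from the cultured lines preGTS1 and GTML3, each given DOX or its solvent DMSO with 3 samples per condition. ATAC-seq, in which a transposase cuts open chromatin, came in duplicate from the sources GTS1 and GTS2, from preGTS1 and GTML3 under DOX and DMSO, and from fractions labelled GFP and nonGFP whose source is labelled as a GTML tumor. Single-cell RNA came from 1 library of fGTS2 and 1 of GTML_SOX9-GFP. The labels give no age, sex or allele, do not say what the prefixes pre and f stand for, and do not say how the fractions were sorted. Each line is 1 line of cells, so its samples carry no information on other lines of its kind.

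p53 is held at low levels by the ubiquitin ligase that Mdm2 encodes, and Mdm2 is itself a p53 target, which closes a feedback loop. When DNA damage, oncogene activity or ribosomal stress releases p53 from that control, it activates genes that halt the cell cycle (Cdkn1a, Ccng1), damp growth signalling (Phlda3), and promote cell death (Bax, Bbc3). Its activity is set mainly through the stability of the protein, so the level of Trp53 mRNA is a separate quantity from p53 activity, and none of the files measures the protein. MYC-driven mouse models of medulloblastoma have often been built on Trp53 loss.

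p53 binds DNA at pairs of half-sites, and the promoters that hold a match are shown because the results below turn on whether these genes move together. The 250 bases before each RefSeq gene start (build GRCm38.p6) were searched for the p53 half-site consensus, which is 10 bases long and reads the same on both strands, and for 2 half-sites separated by 0 to 13 bases with at most 2 mismatches in all. Sequences were found for 8 of the 9 genes, in 11 windows, since some genes have several starts; the gene without one was Zmat3. Of these windows, 3 held 2 half-sites, those of Cdkn1a, Bax and Ccng1, and 5 held at least 1 exact half-site, those 3 together with Trp53 and Mdm2. Among 32851 promoters of the same length, 3.34% held 2 half-sites and 7.13% an exact half-site. Capitals mark the matches, and a match describes letters only. The Cdkn1a match begins 51 bases before the first start of that gene, with 1 mismatch and no spacer. The Ccng1 match begins 195 bases before the start with 1 mismatch and no spacer, and the Bax match 201 bases before it with 2 mismatches and a spacer of 1 base. Distances of open-chromatin regions below are from starts on the mm9 build, and which Cdkn1a start they use is not given here. The Trp53 and Mdm2 windows hold 1 exact half-site each and no pair, and no match was found in the windows of Bbc3, Eda2r or Phlda3 or at the second Cdkn1a start.
Cdkn1a promoter, chr17:29090729-29090978, plus strand: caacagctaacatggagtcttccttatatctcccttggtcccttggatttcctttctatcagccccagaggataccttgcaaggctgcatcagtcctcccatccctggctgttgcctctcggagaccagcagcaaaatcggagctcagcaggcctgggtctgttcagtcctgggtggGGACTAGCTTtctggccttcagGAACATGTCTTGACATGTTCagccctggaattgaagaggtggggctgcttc
Bax promoter, chr7:45466899-45467148, minus strand: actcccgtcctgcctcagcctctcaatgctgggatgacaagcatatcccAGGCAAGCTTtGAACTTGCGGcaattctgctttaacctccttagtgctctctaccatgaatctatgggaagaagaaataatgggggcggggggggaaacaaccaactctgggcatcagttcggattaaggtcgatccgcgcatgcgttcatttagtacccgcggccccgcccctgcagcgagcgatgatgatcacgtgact
Ccng1 promoter, chr11:40755287-40755536, minus strand: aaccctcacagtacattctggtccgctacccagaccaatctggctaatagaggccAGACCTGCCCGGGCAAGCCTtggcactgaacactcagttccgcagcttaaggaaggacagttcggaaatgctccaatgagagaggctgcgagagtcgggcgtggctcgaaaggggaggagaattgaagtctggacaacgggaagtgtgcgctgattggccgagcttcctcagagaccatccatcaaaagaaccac
Trp53 promoter, chr11:69580109-69580358, plus strand: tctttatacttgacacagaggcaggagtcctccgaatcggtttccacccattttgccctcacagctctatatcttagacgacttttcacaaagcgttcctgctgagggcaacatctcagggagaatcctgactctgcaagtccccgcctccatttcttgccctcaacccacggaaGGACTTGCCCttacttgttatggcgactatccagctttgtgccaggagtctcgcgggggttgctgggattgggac
Mdm2 promoter, chr10:117710759-117711008, minus strand: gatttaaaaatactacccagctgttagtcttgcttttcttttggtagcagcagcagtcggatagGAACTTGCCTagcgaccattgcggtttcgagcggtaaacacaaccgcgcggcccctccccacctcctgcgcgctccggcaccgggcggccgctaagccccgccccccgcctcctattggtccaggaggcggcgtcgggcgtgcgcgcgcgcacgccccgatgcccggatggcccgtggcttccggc

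RNA libraries of the lines held 10861225 to 24671854 reads. ATAC libraries held 827366 to 7773324 reads in listed regions for lines and GTS sources, and 8964353 to 14953541 for the fractions. Depth is unknown for the tumors, whose deposited values had been adjusted between 2 sets of tumors marked by a number in the column names, read here as batches. The first of these held 2 GTS and 6 GTML tumors and the second 4 GTS and 2 GTML tumors. By chi-square of reads, GTML3 DOX replicate 1 was far from both others of its group, and results that lose their call without one sample are named with it. No label says that line samples came from separate cultures, so the p-values cover only the variation among these samples, possibly technical.

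In the tumors, the difference in Trp53 was the one that separated the kinds. Trp53 stood between 4.998 and 6.20 log2 CPM in GTS tumors, with a median of 5.66, against 6.38 to 7.51 and a median of 6.73 in GTML tumors. Every GTS tumor lay below every GTML tumor. The log2 fold change was -1.24 (SE 0.25), or 2.37-fold lower in GTS tumors, with a limma adjusted p of 0.0669 over 15708 genes in a fit with batch as a term, so the difference did not pass the threshold of 0.05. Within batches it was -1.06 and -1.45. Of all genes tested, 1.85% had no overlap between the kinds in either direction, and 0.809% lay lower in all GTS tumors, which makes Trp53 1 of 127 such genes, and 1.04% lay higher. Without GTS replicate 2 the log2 fold change was -1.48 (limma adjusted p = 0.0171), and without GTS replicate 3 it was -1.16 (limma adjusted p = 0.0376). Those omissions also raised the calls over all genes from 9 to 583 and 316. Leaving out any other tumor left Trp53 without a call.

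None of the 9 genes passed the limma test between GTS and GTML tumors, and 0.0573% of all genes did, 9 in number (0.0509% higher and 0.00637% lower in GTS tumors). At an unadjusted p under 0.05 there were 3 of the 9, Ccng1 higher and Trp53 and Eda2r lower, beside 3067 of 15708 genes overall. A fit without the batch term, whose errors are too small for values adjusted in this way, called 924 genes, Trp53 among them (limma adjusted p = 0.0150) and no other of the genes described here. In bulk tissue, fewer cells of a type and less RNA per cell cannot be told apart. Scaling each tumor to its median shifted the median of all genes by 0.10, and the Trp53 difference then stood at -1.14.

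Most target genes differed little between the kinds of tumor. Mdm2, the feedback inhibitor, stood between 6.67 and 7.02 log2 CPM in GTS tumors with a median of 6.96, and between 6.53 and 7.10 with a median of 6.75 in GTML tumors (log2 fold change 0.16, SE 0.13, limma adjusted p = 0.4997). Ccng1, a cyclin G that feeds back on Mdm2, stood between 6.86 and 7.57 with a median of 7.18 in GTS tumors, and between 5.66 and 7.24 with a median of 6.75 in GTML tumors (0.65, SE 0.26, limma adjusted p = 0.206). Ccng1 was higher in GTS tumors in both batches, by 0.54 and 0.77, though its ranges overlap. Phlda3, which restrains the kinase Akt, stood between 3.23 and 4.84 in GTS tumors and between 2.84 and 4.88 in GTML tumors (0.42, SE 0.44). The proapoptotic genes Bax and Bbc3, which act at the mitochondrion, differed by -0.02 (SE 0.22) and 0.01 (SE 0.30), and Zmat3, an RNA-binding target, by -0.14 (SE 0.27). The median log2 fold change of the 9 genes was -0.02, beside -0.07 over all genes.

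Cdkn1a and Eda2r had the widest spread of the 9 in both kinds of tumor. Cdkn1a, which encodes the cyclin-dependent kinase inhibitor p21, stood between -2.35 and 3.57 log2 CPM in GTS tumors with a median of 2.53, and between -0.37 and 7.21 with a median of 2.31 in GTML tumors. Its ranges overlap, with 2 of 8 GTML tumors above every GTS tumor and 1 of 6 GTS tumors below every GTML tumor. The difference of -1.05 (SE 1.29, limma adjusted p = 0.651) turned to 0.59 without GTS replicate 1, the lowest tumor. It was -3.89 in the first batch and 2.14 in the second. Eda2r, a receptor of the tumor necrosis factor family, stood between 0.06 and 3.81 in GTS tumors with a median of 2.31, and between 1.28 and 5.49 with a median of 4.26 in GTML tumors. Its difference was -1.98 (SE 0.81, limma adjusted p = 0.213), with -2.48 and -1.42 within batches, and 2 of the 8 GTML tumors lay within the GTS range.

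**Figure D1:**
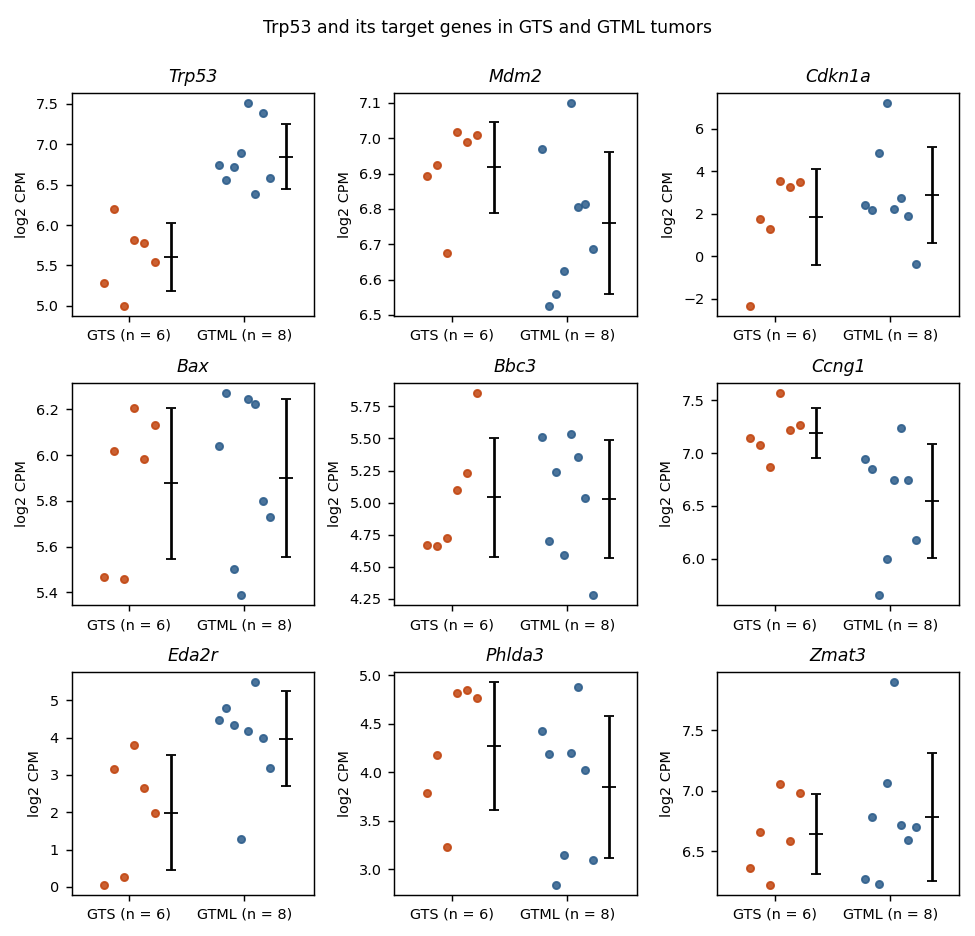
Log2 CPM of the 9 genes in each tumor (vertical axis, a separate range per gene), GTS tumors on the left and GTML tumors on the right; dots are tumors in order of replicate number, and the bar beside them is the mean with its SD. Trp53 is the panel without overlap, with 4.998 to 6.20 in GTS tumors and 6.38 to 7.51 in GTML tumors, while Cdkn1a spans the widest range.

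Other genes of the pathway were taken from lists of p53 family members and regulators, and of further targets by role. Of 26 family members and regulators, 0 passed the limma test in the tumors. An unadjusted p under 0.05 was found for 10 of them, all lower in GTS tumors, beside 3067 of 15708 genes in either direction. The 26 had a median log2 fold change of -0.40, beside -0.07 over all genes. They include Chek2, the checkpoint kinase that phosphorylates p53 after DNA breaks (-1.16, limma adjusted p = 0.0896), and Cdkn2a, whose Arf product binds Mdm2 (-1.64, limma adjusted p = 0.206). Both are examples taken from the 10 lower genes, and neither passed the test. Of the further targets, 0 of 12 in arrest and growth signalling, 0 of 8 in apoptosis and 0 of 10 in repair and metabolism passed. At an unadjusted p under 0.05 there were 2, 3 and 2, again beside 3067 of 15708 genes. Without the batch term 1 of the 26, 1 of the 12, 0 of the 8 and 1 of the 10 were called, beside 924 of 15708 genes.

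Mean levels of some cell cycle and cell type lists also differed between the kinds of tumor, though 0 genes of any list passed the limma test. The level of 42 S phase genes averaged 5.43 ± 0.71 log2 CPM over the 6 GTS tumors and 6.40 ± 0.35 over the 8 GTML tumors (mean ± SD), and that of 52 G2/M genes 5.98 ± 0.78 and 6.89 ± 0.26. The mean of 4 astrocyte markers ran from 3.36 to 7.49 in GTS tumors and from 0.87 to 5.48 in GTML tumors, that of 10 microglia and macrophage markers from 4.28 to 5.56 and from 2.96 to 5.17, and that of 5 medulloblastoma and granule lineage markers from 2.56 to 5.64 and from 4.67 to 6.73. The mean of 5 oligodendrocyte markers ran from 2.03 to 6.17 in GTS tumors and from 0.37 to 4.33 in GTML tumors. That of 5 endothelial markers ran from 3.81 to 4.80 and from 3.31 to 5.34, and that of 2 T and NK cell markers from 2.12 to 4.39 and from 2.21 to 4.56. The tumor table lists 5 of the 6 lineage markers and all 4 astrocyte markers. The part of these lists in the Trp53 difference was not tested. Across the 14 tumors, centred on kind, Trp53 had r = 0.09 with the mean of the S phase and G2/M genes (rho = -0.20), but 0.42 in the first batch, -0.93 in the second and -0.70 without the 2 farthest tumors, so its size and sign depend on the batch and on those tumors. With the microglia markers it had r = -0.05 (rho = 0.02), with -0.19 and 0.36 within batches and 0.56 without the 2 farthest tumors. Mdm2 had r = -0.33 with the cell cycle genes (rho = -0.56), with -0.27 and -0.89 within batches and -0.80 without the 2 farthest tumors. Of 18 such relations with the 9 genes, the smallest permutation p adjusted over the 18 was 0.884 for Pearson's r and 0.681 for Spearman's rho.

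Several targets were correlated from tumor to tumor within a kind. Ccng1 and Phlda3 were correlated over the 14 tumors after centring on kind (Pearson r = 0.903, permutation adjusted p = 0.00072 over 36 pairs; Spearman rho = 0.868, adjusted p = 0.00324). The correlation was 0.977 within the first batch of 8 tumors and 0.864 within the second of 6, and 0.867 without the 2 tumors farthest from the median. By this measure Phlda3 was 2nd of 15707 genes in its likeness to Ccng1, and Ccng1 4th in its likeness to Phlda3. Bax joined them, with r = 0.876 to Phlda3 (permutation adjusted p = 0.00594; rho = 0.714, adjusted p = 0.0602) and r = 0.796 to Ccng1 (permutation adjusted p = 0.00666; rho = 0.798, adjusted p = 0.0286). Phlda3 was 4th of 15707 genes by likeness to Bax. Both Bax pairs held within batches, at 0.870 and 0.894 for Phlda3 and 0.809 and 0.778 for Ccng1, and stood at 0.837 and 0.740 without the 2 farthest tumors.

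Eda2r was correlated with Bax and Phlda3, with r = 0.820 to Bax (permutation adjusted p = 0.00666; rho = 0.732, adjusted p = 0.0391) and r = 0.707 to Phlda3 (permutation adjusted p = 0.0448; rho = 0.640, adjusted p = 0.0990). Without the 2 farthest tumors these were 0.700 and 0.690. Its pair with Ccng1 did not pass (r = 0.576, permutation adjusted p = 0.0948). By likeness to Eda2r, Bax was 19th, Phlda3 93rd and Ccng1 421st of 15707 genes. In all, 5 of 36 pairs passed. Leaving out each tumor in turn gave 3 pairs (without GTML replicate 4) to 8 pairs (without GTML replicate 2 or 3). How often pairs of other genes pass was not tested, so the count is no result about the set. Genes outside the set ranked highest by likeness to Ccng1 (Hsd17b1, r = 0.923), Phlda3 (Tspan13, 0.921), Eda2r (Zbtb41, 0.888) and Bax (Tmeff1, 0.884). No pair with Trp53 or Cdkn1a passed. The highest for Trp53 was Mdm2 (r = 0.581, permutation adjusted p = 0.123), which came 115th among all genes. Among the genes most like Trp53 over the 14 tumors were 2410006H16Rik (r = 0.80), Zfp276 (0.80), Eif3f (0.78) and Zfp345 (0.75), where the median over all genes was -0.02. Most like Cdkn1a were Kcnh8 (0.94), Nov (0.93), H2-Q1 (0.90), Sema5b (0.90) and Spata24 (0.90).

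The treated lines were compared for their response to DOX and for the difference between lines, in comparisons where most genes changed. In preGTS1 under DOX 6 of the 9 genes passed the limma test, 3 higher and 3 lower, beside 68.3% of all genes (34.5% higher, 33.7% lower). In GTML3 under DOX 5 of 9 passed, 2 higher and 3 lower, beside 65.8% of all genes (34.5% higher, 31.4% lower), and 4 of 9 responded differently between lines, beside 42.2% (17.1% higher, 25.1% lower). preGTS1 differed from GTML3 in 7 of 9 under DOX, 5 higher and 2 lower, beside 72.0% (36.9% higher, 35.0% lower), and in 8 of 9 under DMSO, 5 higher and 3 lower, beside 66.4% (38.5% higher, 27.9% lower). Groups of 3 without overlap were as common over all genes, at 73.1% for DOX in preGTS1, 70.7% for DOX in GTML3, 73.6% between lines under DOX and 72.6% under DMSO. With shares like these the counts are no result about the set, and the values below describe each gene.

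Trp53 fell under DOX in preGTS1, and in GTML3 it rose by a call that depends on the setting. In preGTS1 it stood at 4.48, 4.65 and 4.28 log2 CPM under DOX against 5.31, 5.11 and 5.39 under DMSO, and every DOX sample lay below every DMSO sample. That fall was 1.74-fold (log2 fold change -0.80, SE 0.13, limma adjusted p = 5.35e-05). In GTML3 it stood at 3.77, 3.95 and 4.15 under DOX against 3.67, 3.49 and 3.74 under DMSO, a rise of 0.32 (SE 0.13, limma adjusted p = 0.0414) that lost its call in 7 of 18 alternatives, which were median-centred values, a block for the replicate number, and the omission of GTML3 DMSO replicate 1 or 2, GTML3 DOX replicate 2 or 3, or preGTS1 DMSO replicate 1. The responses of the lines differed by -1.12 (SE 0.19, limma adjusted p = 0.000205), a call kept in all 18 alternatives. Under either treatment Trp53 was higher in preGTS1 than in GTML3, by 0.51 under DOX (1.43-fold, limma adjusted p = 0.00244) and by 1.64 under DMSO (3.11-fold, limma adjusted p = 2.84e-08), without overlap of the samples.

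Mdm2 responded to DOX in neither line by the test. It stood at 5.97, 5.68 and 5.85 log2 CPM in preGTS1 under DOX and 5.80, 5.98 and 5.77 under DMSO, and at 6.13, 6.08 and 6.21 in GTML3 under DOX and 5.9999, 6.14 and 6.19 under DMSO. Neither response passed the test (-0.02 and 0.03, SE 0.09 each). In preGTS1 it was lower than in GTML3 by 0.31 under DOX (limma adjusted p = 0.0074) and by 0.26 under DMSO (limma adjusted p = 0.0217), and the second of these calls was lost without GTML3 DMSO replicate 2 or 3 or preGTS1 DMSO replicate 1 or 3.

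Cdkn1a responded to DOX in opposite directions in the lines. In preGTS1 it stood at 2.36, 2.18 and 2.17 log2 CPM under DOX against 0.42, 0.58 and 0.74 under DMSO. In GTML3 it stood at 1.57, 0.96 and 1.51 under DOX against 2.50, 2.53 and 2.56 under DMSO. The groups overlap in neither line, so that Cdkn1a rose 3.15-fold in preGTS1 (1.66 on the log2 scale, SE 0.22, limma adjusted p = 5.09e-06) and fell 2.27-fold in GTML3 (-1.18, SE 0.22, limma adjusted p = 0.000177). The difference of responses was 2.84 (SE 0.31, limma adjusted p = 3.86e-06), or 7.15-fold. Under DOX preGTS1 stood above GTML3 by 0.89 (1.85-fold, limma adjusted p = 0.00168), and under DMSO it stood below GTML3, 3.86-fold lower (log2 fold change -1.95, limma adjusted p = 1.11e-06).

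Eda2r showed the widest gap between the lines. In preGTS1 it had 1053, 725 and 962 reads under DOX and 433, 455 and 408 under DMSO, and in GTML3 15, 6 and 5 reads under DOX and 57, 20 and 31 under DMSO. It rose 2.64-fold in preGTS1 (log2 fold change 1.40, SE 0.45, limma adjusted p = 0.0146). In GTML3 it fell 3.12-fold (-1.64, SE 0.45, limma adjusted p = 0.00614), with DOX replicate 1 inside the DMSO range, and over 18 alternatives this fall ran from -2.26 to -0.77 and kept its call. The difference of responses was 3.04 (SE 0.63, limma adjusted p = 0.00224). preGTS1 exceeded GTML3 by 6.57 on the log2 scale under DOX and 11.5-fold under DMSO. GTML3 reads under DOX were few, and over 18 alternatives the first of these ran from 5.05, on log2(CPM + 1), to 7.18, without GTML3 DOX replicate 1.

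Bbc3, the gene of the death-promoting protein Puma, rose in both lines. It stood at 4.49, 4.78 and 4.34 log2 CPM in preGTS1 under DOX against 3.66, 3.58 and 3.48 under DMSO, and at 4.20, 3.70 and 4.06 in GTML3 under DOX against 1.997, 1.926 and 1.999 under DMSO. The groups overlap in neither line. The rise was 1.95-fold in preGTS1 (0.96, SE 0.15, limma adjusted p = 3.54e-05) and 4.02-fold in GTML3 (2.01, SE 0.15, limma adjusted p = 1.03e-08), so that it was larger in GTML3 by 1.05 (preGTS1 minus GTML3 -1.05, SE 0.21, limma adjusted p = 0.0011). Bax, which opens the mitochondrial membrane, did not pass in either line (0.09 in preGTS1, -0.31 in GTML3, SE 0.22 each), though the 3 GTML3 samples under DOX all lay below those under DMSO, as for 32.9% of all genes. Without preGTS1 DMSO replicate 3, whose Bax stood at 6.63 beside 5.76 and 5.79, the preGTS1 response was 0.38 (limma adjusted p = 0.0470) and the difference of responses 0.68 (limma adjusted p = 0.0174). Bax was higher in preGTS1 than in GTML3 by 1.07 under DOX (limma adjusted p = 0.000994) and by 0.68 under DMSO (limma adjusted p = 0.0187), a call lost without GTML3 DMSO replicate 3 (0.39).

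The other 3 targets changed less. Zmat3 fell in both lines, by 0.45 in preGTS1 (limma adjusted p = 0.0172), lost without preGTS1 DOX replicate 1, and by 0.42 in GTML3 (limma adjusted p = 0.0263), lost without GTML3 DMSO replicate 1 or GTML3 DOX replicate 2 or 3. Ccng1 fell by 0.32 in preGTS1 (limma adjusted p = 0.0161), lost without replicate 2 of either condition, and differed by 0.00 (SE 0.11) in GTML3. Phlda3 passed in neither (0.35 and 0.14, SE 0.27 each), and its reads were few, 22 to 37 per preGTS1 sample and 45 to 93 per GTML3 sample. Phlda3 was lower in preGTS1 than in GTML3 by 1.22 under DOX and by 1.42 under DMSO (limma adjusted p = 0.00078 and 0.000242). Ccng1 was higher in preGTS1 under DMSO by 0.28 (limma adjusted p = 0.0331), where median-centred values shifted all genes by -0.11. That call was lost with median-centred values, DESeq2, a block for the replicate number, or without GTML3 DMSO replicate 1 or 3 or preGTS1 DMSO replicate 1 or 2.

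**Figure D2:**
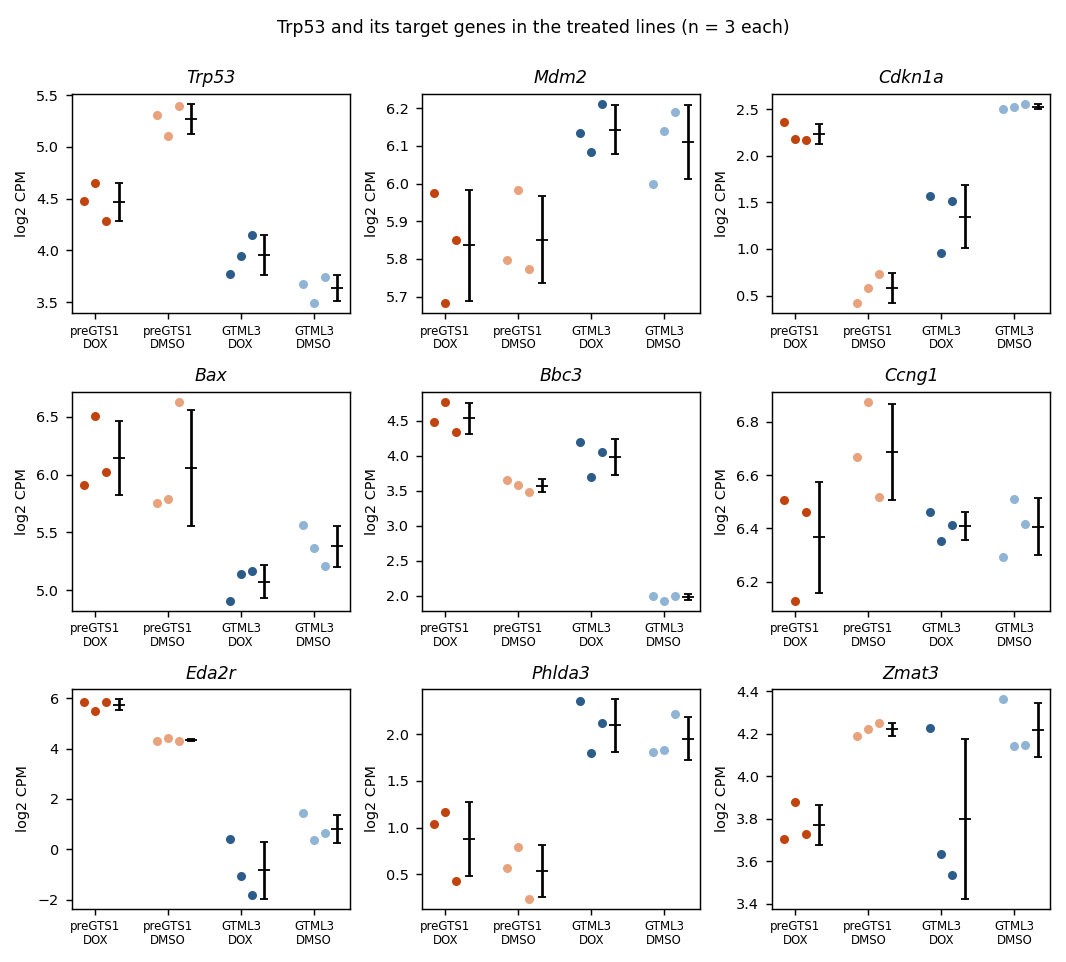
Log2 CPM of the 9 genes in the treated lines (vertical axis, a separate range per gene), for preGTS1 under DOX and DMSO and GTML3 under DOX and DMSO, n = 3 each; dots are samples and the bar beside them is the mean with its SD. Cdkn1a and Eda2r are higher under DOX in preGTS1 and lower under DOX in GTML3, while Trp53 is lower under DOX in preGTS1.

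Other genes of the pathway were followed in the same fits. Of 12 further targets in arrest and growth signalling, 9 rose and 2 fell in preGTS1 under DOX (34.5% and 33.7% over all genes), and 4 rose and 3 fell in GTML3 (34.5% and 31.4%), with medians of 1.14 and -0.05 beside 0.04 and 0.05 over all genes. Trp53inp1, which promotes p53 phosphorylation and autophagy, rose in both, by 2.51 in preGTS1 and 3.46 in GTML3. Plk2, a polo-like kinase, rose by 2.62 in preGTS1, and the responses of the lines differed by 2.63. Gadd45a, a stress sensor of growth arrest, had 1182, 1346 and 1069 reads in preGTS1 under DOX and 688, 597 and 717 under DMSO, against 61, 75 and 130 in GTML3 under DOX and 417, 356 and 418 under DMSO. It fell by 1.81 in GTML3, and the responses differed by 2.99 (limma adjusted p = 1.45e-08), in the same direction as Cdkn1a.

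The next counts, too, stand beside 68.3% of all genes called in preGTS1 and 65.8% in GTML3, and read against those shares they are no result about the lists. Of 8 further apoptosis targets, 1 rose and 4 fell in preGTS1 and 2 rose and 4 fell in GTML3. The exonuclease gene Aen fell by 1.41 in preGTS1 and 2.09 in GTML3, and Pidd1, of the caspase-activating PIDDosome, by 1.86 and 1.72. Of the 2 that rose in GTML3, Pmaip1 had 0, 1 and 2 reads under DOX and 0 in each DMSO sample, too few for a fold, and Perp 6, 5 and 9 against 1, 4 and 8. Of 10 targets in repair and metabolism, 1 rose and 4 fell in preGTS1 and 3 rose and 2 fell in GTML3. Of 26 family members and regulators, 8 rose and 14 fell in preGTS1 and 8 rose and 12 fell in GTML3. The checkpoint kinase genes led the falls, Chek2 by 3.53 in preGTS1 and 3.21 in GTML3, and Chek1 by 3.46 and 2.99. Trp73, the p53 relative, rose by 3.61 in preGTS1, where it had 48, 57 and 49 reads under DOX and 2, 10 and 6 under DMSO, and fell by 1.46 in GTML3. Cell cycle genes moved with DOX in both lines: 42 of 42 S phase genes fell in each, with 52 of 52 G2/M genes in preGTS1 and 49 of 52 in GTML3, and their part in the responses of the p53 genes was not tested.

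Between lines, Twist1, Pmaip1 and Tnfrsf10b had at most 2 reads in any GTML3 sample. Pmaip1, which encodes the death-promoting protein Noxa, had 119, 149 and 104 reads in preGTS1 under DMSO and 0 in each GTML3 sample under DMSO. Of the 12 targets in arrest and growth signalling, 9 were higher and 1 lower in preGTS1 under DOX (36.9% and 35.0% over all genes), and 10 higher and 0 lower under DMSO (38.5% and 27.9%). Cdkn2a was higher in preGTS1 under DOX by 2.74, with 2976, 3314 and 3032 reads against 261, 414 and 531 in GTML3.

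Open chromatin at these genes was compared without a test. The duplicates varied more than counting of independent reads, which gives 1 chi-square per degree of freedom, at 1.88 to 2.05, beside 4.67 to 85.1 for line RNA replicates. The excess was of like size at all depths, with 1.71 to 2.47 in regions of 10 to 30 reads and 1.92 to 2.26 in those of 300 or more, and its cause was not tested. The condition set for merging, a difference within counting noise, was therefore not met. Each pair was merged all the same, because no label says whether duplicates are separate samples of tissue or cells, and a region counts as past 2-fold from the ratio of its CPM. Intervals are 95% counting intervals widened by that chi-square and cover counting error only. Regions with at most 3 reads in both groups get no ratio. Coordinates of regions are on the mm9 build, and distances are from the gene start, negative when upstream.

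Of the regions near the 9 genes, 14 of 25 were past 2-fold in GTS1 against GTML3 under DMSO, 9 higher and 5 lower, beside 56.2% of all regions with a ratio (28.7% higher, 27.5% lower). In GTS2 it was 12 of 24, 9 higher and 3 lower, beside 63.1% (26.3% higher, 36.8% lower), and in preGTS1 under DMSO 9 of 25, 6 higher and 3 lower, beside 43.8% (30.8% higher, 12.9% lower). DOX moved 6 of 25 past 2-fold in preGTS1, 4 higher and 2 lower, beside 35.1% (19.6% higher, 15.5% lower), and 5 of 23 in GTML3, 2 higher and 3 lower, beside 34.0% (19.1% higher, 14.8% lower). In either direction together, the shares near the 9 genes lie close to or under those of all regions. Between GFP and nonGFP fractions 0 of 20 regions were past 2-fold, beside 5.63% of all regions (4.09% higher, 1.54% lower), and the ratios ran from 0.697 to 1.20. There the Cdkn1a region at +871 bp had 64.2 CPM in the GFP fraction and 62.4 CPM in the nonGFP fraction.

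The region just upstream of Trp53, chr11:69392544-69393221 at -978 bp, had a higher CPM in GTS sources than in GTML3 under DMSO. It had 61.8 and 62.8 CPM in the GTS1 duplicates and 13.5 and 21.1 CPM in those of GTS2, against 3.43 and 6.58 CPM in GTML3 under DMSO. Merged, the ratio over GTML3 was 12.5 for GTS1 (interval 6.34 to 24.7) and 3.61 for GTS2 (1.68 to 7.77). preGTS1 under DMSO had 10.3 CPM merged (ratio 2.08, interval 1.03 to 4.18). The region that spans the start, at -41 bp, gave 24.8 CPM in GTS1 and 9.50 in GTS2 against 4.10 in GTML3, ratios of 6.06 (2.82 to 13.03) and 2.32 (0.94 to 5.72), and the third, at +1200 bp, gave 2.46 and 2.18. In GTML3 these 3 regions rested on 17, 14 and 16 reads. With DOX the upstream region had 17.5 CPM in preGTS1 against 10.3 under DMSO (1.70, interval 1.27 to 2.27), and 13.4 CPM in GTML3 against 4.97 under DMSO (2.69, interval 1.13 to 6.40). GTS2, at 17.9 CPM merged, thus stood nearer to GTML3 under DOX than to GTML3 under DMSO. In preGTS1, then, the upstream region had more reads under DOX while Trp53 RNA fell.

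Cdkn1a was more open in both GTS sources. The region at its start (+60 bp, chr17:29230439-29231108) had 39.5 and 49.4 CPM in GTS1 and 43.0 and 42.8 CPM in GTS2, against 13.7 and 22.1 CPM in GTML3 under DMSO. Both ratios were 2.41, with intervals of 1.63 to 3.55 and 1.57 to 3.70. The region at +1661 bp, inside the gene, had 56.2 CPM in GTS1 and 34.8 in GTS2 against 14.3 in GTML3, ratios of 3.92 (2.58 to 5.96) and 2.43 (1.51 to 3.92). With DOX it had 35.9 and 23.1 CPM in preGTS1 against 12.7 and 16.98 under DMSO, a ratio of 1.99 (1.58 to 2.51) just under 2, while the start region stayed at 1.12. In GTML3, where Cdkn1a RNA fell, both regions had ratios under 1 (0.69 and 0.78) with intervals that span 1.

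Bbc3 has 5 regions, and 1 of them, at +664 bp, was past 2-fold in 4 of the 5 comparisons of lines and sources. All 4 share GTML3 under DMSO as their reference, with only 12 and 13 reads there in its duplicates, so they are not separate results. The region had 29.3 CPM in GTS1, 23.9 in GTS2 and 18.0 in preGTS1 under DMSO against 7.31 in GTML3 under DMSO, ratios of 4.002 (2.23 to 7.18), 3.27 (1.72 to 6.21) and 2.46 (1.38 to 4.36). With DOX it had 20.05 CPM in GTML3, 2.74 times the DMSO value (1.34 to 5.59), and 24.2 CPM in preGTS1, 1.35 times (1.07 to 1.70). The start region at -67 bp had ratios of 0.88 to 1.11 in all 5. For DOX the ratio at +664 bp was larger in GTML3, where Bbc3 RNA also rose more, but its intervals in the lines overlap, so their order is not settled.

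Eda2r went against its RNA between the lines and for DOX in preGTS1, but not for DOX in GTML3. Its region at +416 bp (chrX:94571460-94572806) had 9.70 CPM in preGTS1 under DMSO against 72.0 in GTML3, 7.42-fold lower (ratio 0.135, interval 0.101 to 0.180), although preGTS1 had 11.5-fold more Eda2r RNA. DOX gave 5.71 CPM in preGTS1 against 9.70 under DMSO (0.59, interval 0.40 to 0.88), where the RNA rose. In GTML3, where the RNA fell, the region had 58.8 and 36.3 CPM under DOX against 75.5 and 68.2 under DMSO. Between the GTS sources it differed as well, with 126 and 101 CPM in the GTS1 duplicates and 16.9 and 13.3 in those of GTS2. Other starts of the gene beyond 10 kb were not analysed here.

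The remaining genes changed less or rested on few reads. Mdm2 (+267 bp) and the Ccng1 start (+6 bp) stayed within 2-fold throughout, at 0.83 to 1.47 and 0.70 to 1.41. Phlda3 (+208 bp) was 5.08-fold lower in GTS2 than in GTML3, 3.17 CPM against 16.1, and 1.13 times in GTS1. In preGTS1 under DOX 2 regions of Zmat3 were higher, at -3242 bp (13.8 CPM against 3.44 under DMSO, interval of the ratio 2.58 to 6.21) and at +4572 bp (2.65, interval 2.03 to 3.47), while Zmat3 RNA fell. The Bax start (+135 bp) had 20.9 CPM under DOX in preGTS1 against 10.5 under DMSO, a ratio of 2.001, just past 2-fold. Of the regions away from the starts, Bbc3 at +1354 bp was 2.49 times GTML3 in preGTS1 and at -9747 bp 2.13 times in GTS1, while at +4364 bp GTS2 had 16.2 CPM against 37.7 in GTML3. Ccng1 at -7081 bp had 43 reads in GTS2 and 8 in GTML3 (6.46 times), and Zmat3 at -2122 bp 99 reads in preGTS1 and 7 in GTML3 (3.33 times). Zmat3 at +4572 bp was at 0.245 of GTML3 in GTS1. Bax at +5872 bp had 53 reads in GTS1 and 3 in GTML3, and Zmat3 at +9491 bp 33 reads in GTS2 and 1 in GTML3. The others past 2-fold had at most 11 reads in 1 of the groups compared.

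**Figure D3:**
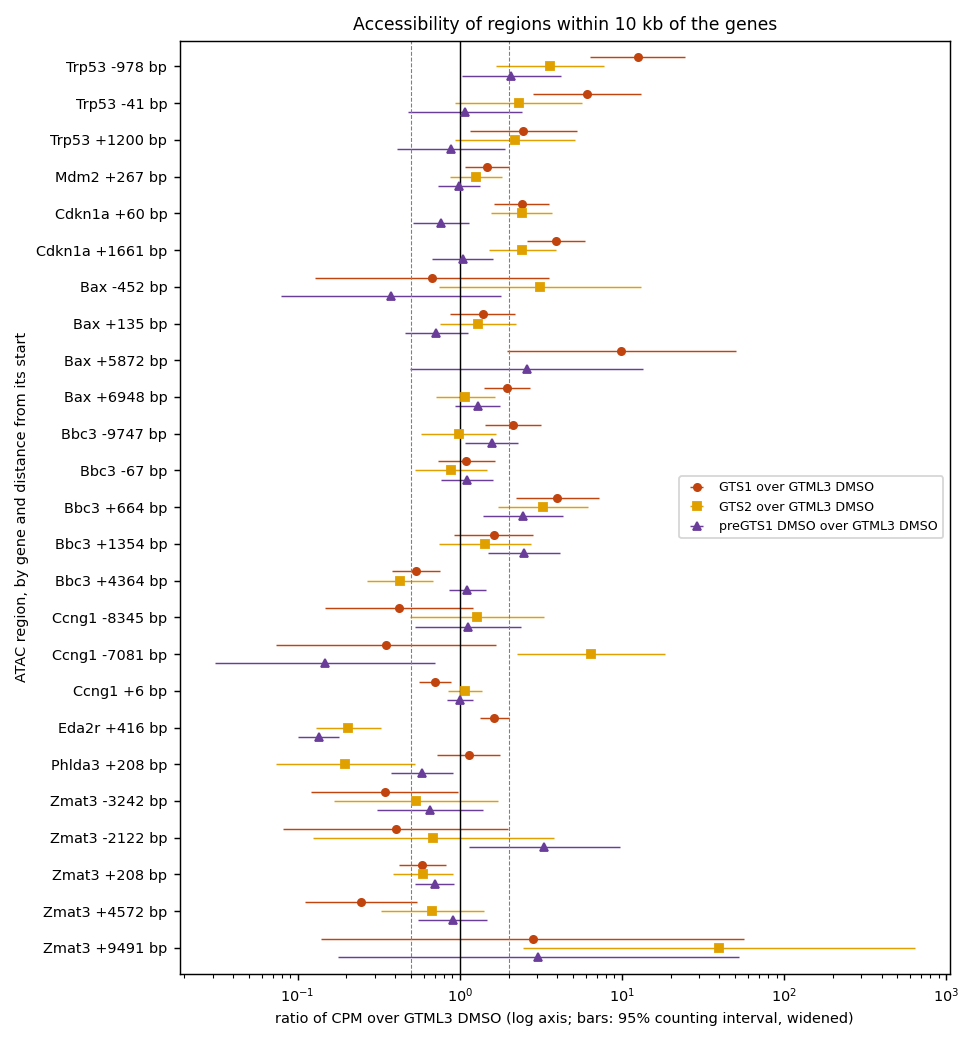
Ratio of merged CPM over GTML3 under DMSO (horizontal log axis) for each region within 10 kb of a gene start (rows, with distance from the start), for GTS1, GTS2 and preGTS1 under DMSO; bars are widened 95% counting intervals, the solid line marks 1 and dashed lines mark 2-fold. The Trp53 region at -978 bp stands at 12.5 in GTS1, and the Eda2r region at 0.135 in preGTS1 and 0.205 in GTS2.

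In single cells Trp53 differed in the opposite direction from the tumors. The fGTS2 library held 7050 Trp53 UMIs, molecules tagged before amplification, in 4498 cells (68.3 CPM, interval 66.7 to 69.9), and the GTML_SOX9-GFP library 221 in 4645 cells (2.31 CPM, interval 2.01 to 2.63). That was 29.6-fold higher in fGTS2 (interval 25.9 to 34.0). A Trp53 UMI was found in 71.6% of fGTS2 cells and 3.25% of GTML_SOX9-GFP cells, at median depths of 20893.5 and 18744 UMIs per cell, and in 27.6% and 1.45% after each cell was thinned to 5000 UMIs, which left out 140 and 108 shallower cells. There is 1 library per group, so no test was made, intervals cover counting error only, and differences between libraries and between conditions cannot be told apart. The libraries share 6 cell barcodes.

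The targets were measured in the same cells and did not share that fold. Cdkn1a had 157 CPM of UMIs in fGTS2 and 65.7 in GTML_SOX9-GFP, 2.39-fold, Ccng1 91.7 and 19.3, 4.76-fold, and Phlda3 11.6 and 2.19, 5.28-fold. Mdm2 stood at 33.0 and 34.5, Zmat3 at 21.3 and 19.5, Bax at 374 and 289, and Bbc3 at 30.5 and 38.6. Eda2r had 1.65 CPM in fGTS2, in 3.36% of cells, and was not listed for GTML_SOX9-GFP. Of the 8 genes in both libraries, 4 were past 2-fold, beside 31.9% of all 15233 genes, and all 4 were higher in fGTS2, where 9.65% of all genes were higher and 22.2% lower. The median ratio of all genes was 0.825, so that Mdm2, at 0.958, stood close to it.

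**Figure D4:**
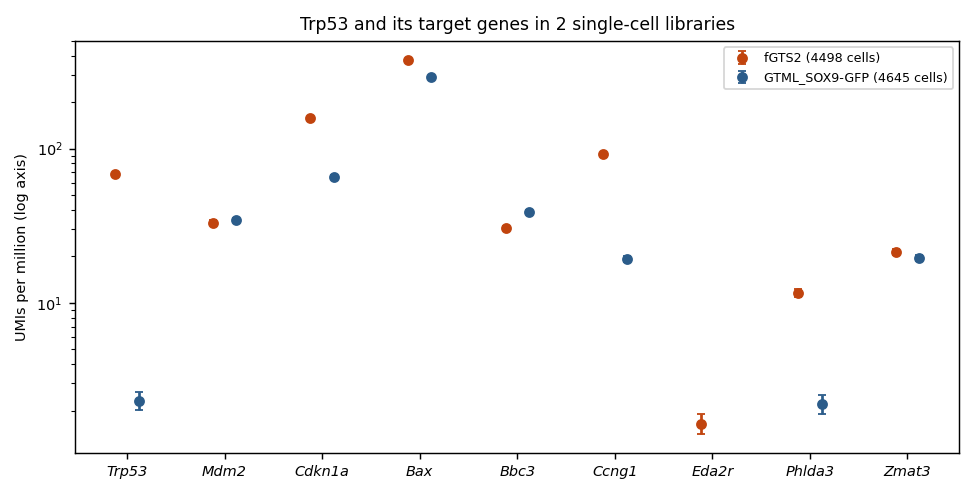
UMI CPM (vertical log axis) of the 9 genes in the fGTS2 library (left of each pair) and the GTML_SOX9-GFP library, with exact 95% Poisson intervals that cover counting error only. Trp53 stands at 68.3 and 2.31, Ccng1 at 91.7 and 19.3, and Eda2r has a point for fGTS2 alone.

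The label of the cells was checked by their markers. Sox9 had 68.6 CPM in fGTS2 and 12.2 in GTML_SOX9-GFP, and Mycn 48.4 and 65.0. Of the medulloblastoma and granule lineage markers, Neurod1 had 1.36 and 21.4 CPM, and Zic1, Otx2 and Atoh1 were listed in neither library. Of these 6 lineage markers fGTS2 lists 2 and GTML_SOX9-GFP 3. Csf1r, Cd3e, Kdr, Mog and Gfap, markers of microglia, T cells, endothelium, oligodendrocytes and astrocytes, were listed in neither, but other markers of each type were listed. Of 5 endothelial markers fGTS2 lists 1 and GTML_SOX9-GFP 3, of 5 oligodendrocyte markers 3 and 2, and of 5 T and NK cell markers 1 and 1. Of 10 microglia markers fGTS2 lists 2 and GTML_SOX9-GFP 6: Aif1 had 101 UMIs in fGTS2 and 9 in GTML_SOX9-GFP, P2ry12 had 3 and 6, and C1qa, C1qc, Tyrobp and Itgam were listed for GTML_SOX9-GFP alone, at 6 to 13 UMIs. Of 4 astrocyte markers fGTS2 lists 2 and GTML_SOX9-GFP 3, with Aldoc at 552 UMIs in fGTS2 and 2188 in GTML_SOX9-GFP and S100b at 4 and 10. The part of these cells in the differences above was not tested. Among other targets, Trp53inp1 had 38.3 CPM in fGTS2 and 6.40 in GTML_SOX9-GFP, and the death receptor gene Fas 7.32 and 0.063, while Plk3 had 1.27 and 5.02. In the lists, 4 of 12 targets in arrest and growth signalling were at least 2-fold higher and 5 lower, 2 and 1 of 8 in apoptosis, 3 and 1 of 10 in repair and metabolism, and 0 and 1 of 26 family members and regulators. Over all 15233 genes 9.65% were higher and 22.2% lower, and with lists this small the counts are no result about them.

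Within each library the genes varied with the share of UMIs from S phase and G2/M genes, by which cells were ranked and cut into 3 groups of like size. In the cells with the highest share Cdkn1a had 199 CPM in fGTS2 (n = 1499 cells) and 86.5 CPM in GTML_SOX9-GFP (n = 1548 cells), against 116 and 48.6 CPM in the cells with the lowest share (n = 1500 and 1549). Bbc3 ran the other way, with 16.0 and 30.6 CPM in the cells with the highest share against 47.1 and 57.7 CPM in those with the lowest. Trp53 had 77.3 CPM in the highest-share fGTS2 cells and 50.8 CPM in the lowest-share ones. Depth differs along this ranking, with median UMIs of 27289 and 17832.5 in fGTS2. At 5000 UMIs per cell Cdkn1a was found in 58.1% of highest-share and 37.5% of lowest-share fGTS2 cells, and Bbc3 in 8.21% and 20.5%. These groups were made from cells of 1 library each, and no test was made. Splitting fGTS2 cells by a Sox9 UMI moved little, with Trp53 at 67.2 in cells with one and 70.9 in cells without, and Cdkn1a at 158 and 156.

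Several genes beside Trp53 also had fewer UMIs in GTML_SOX9-GFP. Of the 8 protein-coding genes on each side in RefSeq order, chosen after the Trp53 values were seen, the adjacent Wrap53, which is transcribed from the opposite strand, had 1088 UMIs in fGTS2 and 25 in GTML_SOX9-GFP (10.5 and 0.261 CPM). Efnb3 had 66 and 3 UMIs, Atp1b2 78 and 13, and Sat2 38 and 11. Efnb3, Wrap53 and Trp53 are contiguous, and the other neighbours had lower ratios in both directions, with Kdm6b at 41.5 and 29.02 CPM, Fxr2 at 41.7 and 28.3, Mpdu1 at 47.1 and 20.3, and Eif4a1 at 1029 and 499.6. Chd3, the farthest on the side of Wrap53, was lower in fGTS2 at 8.62 and 14.6 CPM, Tmem88 stood at 104 and 93 UMIs, and Dnah2, next to Efnb3, had 3 and 5 UMIs. Whether strand was used in counting is not given in the sources used here, so reads of Trp53 and Wrap53 may not be fully separable. In bulk tumors Wrap53 averaged 5.28 log2 CPM for GTS and 5.22 for GTML.

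**Figure D5:**
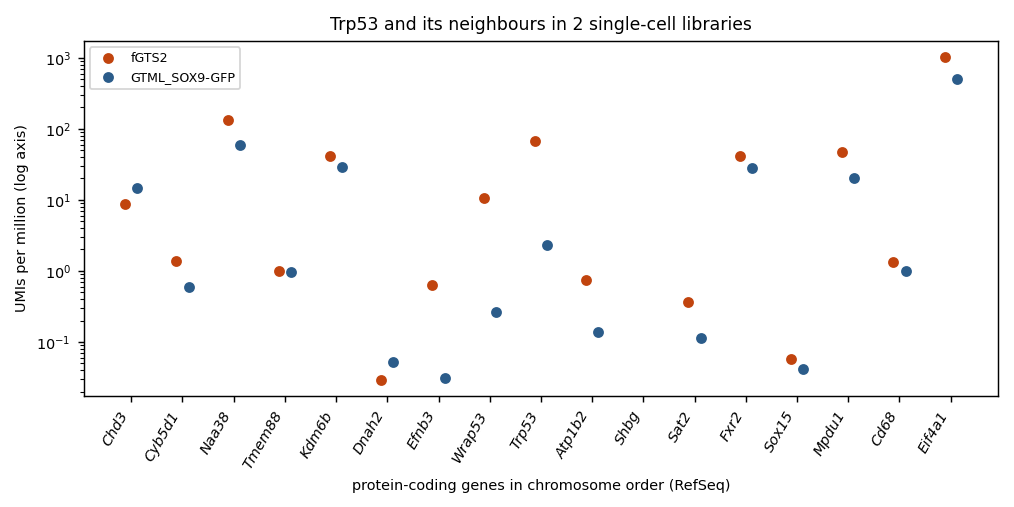
UMI CPM (vertical log axis) of Trp53 and the 8 protein-coding genes on either side, in chromosome order, in fGTS2 (left of each pair) and GTML_SOX9-GFP; Shbg was listed in neither library. The gap between libraries is at Trp53 (68.3 and 2.31), Wrap53 (10.5 and 0.261) and Efnb3, and is smaller at Kdm6b and Fxr2.

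Open chromatin of the fractions also held a gap at Trp53. The table of GFP and nonGFP fractions holds no region for 172063 bp around Trp53, between positions 69273849 and 69445913 of chromosome 11 (mm9), while the table of lines and GTS sources holds 8 regions there, 3 of them within 10 kb of the Trp53 start. On that chromosome, 63 of 5504 gaps between regions of the fractions' table were as long or longer, and 23 of 5503 gaps examined held as many regions of the other table. For the other 8 genes the fractions' table holds 1 to 6 regions each. The cause of the gap, and of the low UMI counts at these genes, was not tested.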

How the data were processed

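Bulk RNA of 14 tumors and 12 line samples, ATAC-seq of 16 libraries and single-cell RNA of 2 libraries were analysed, 44 samples in all. The members and gene lists were chosen with earlier results of these data known. The tumor and line tables hold log2 CPM scaled to library size by the authors, read from the values, since no header states it. The deposited tumor log2 values carry no difference in batch means within tumor kind (largest coefficient 1.8e-14), so they had been adjusted for the number in the column names. A fit with no batch term then has errors that are too small. Both ATAC tables hold CPM over the listed regions, as deposited by the authors. For lines and ATAC, 100% of values were whole multiples of 1 read within 0.1, which returned read counts. Over all line comparisons edgeR called 6906 to 11542 genes on those reads and limma 6721 to 11459. The single-cell tables hold deposited UMI counts per gene and cell. Bulk RNA was read on Ion Torrent, per the labels' protocols. STAR 2.4.0, Bowtie2 2.2, Subread 1.5.2, Cell Ranger 3.3.0, Seurat 3.0, MACS2, limma and edgeR, with builds mm9 and mm10, are named in the submitters' processing notes, with no role or order. Treated line samples were assigned by title, since their description names another column. Further bulk RNA samples of the design text were not analysed here.

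Log2 values were fitted with limma 3.58.1 (trend, robust; R 4.3.3) and Benjamini-Hochberg adjustment over all genes at 0.05. Genes needed a CPM of 1 in 6 tumors or in 3 line samples. Tumors had kind and batch as terms, and lines 4 groups of 3 in 1 fit. Leave-one-out, median centring, log2(CPM + 1), no filter, a replicate block, edgeR 4.0.16 and DESeq2 1.42.0 on the recovered reads, and for tumors no batch term, were alternatives. The fit was tested on simulated data: of 200 changed genes it recovered 158 with 8 false calls for DOX in GTML3 (15823 genes), and 189 with 4 false calls for tumors (16078 genes). Changed genes of the simulated tumors were shifted by 4 SDs of the fit's residuals, with normal noise. Their recovery does not speak for smaller differences. Tumor pairs used 100000 permutations within kind (Python 3.11.15, scipy 1.17.1). Replicate numbers of the lines were checked for pairing by correlating deviations from group means.

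All 9 genes were named, with up to 4 called genes per further list and direction of largest change, the 5 genes most like Trp53 and Cdkn1a (1 of them is not reported here), regions nearest each start or past 2-fold, and cells by cycling share and by a Sox9 UMI. In tumors, Chek2 and Cdkn2a were named though not called. Neighbours of Trp53 were chosen after its values were seen. Single-cell shares were compared at 5000 UMIs per cell, with no caller for doublets and no filter on cells beyond the deposited tables. Promoter sequences came from RefSeq.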

Additional observations from a re-analysis of the deposited data

Results flagged for a closer look

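Mdm2 in GTS tumor replicate 3 stood at 6.67 log2 CPM, farther below the other GTS tumors than Dixon's 95% limit for 6 samples allows, with a gap of 0.635 of the range. Of 18 groups examined by gene and kind of tumor it was the only one so marked, and chance marks about 1 in 20.

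For 4 genes the response to DOX differed between the lines by the limma interaction test, given as preGTS1 minus GTML3. The difference was -1.12 for Trp53, 2.84 for Cdkn1a, -1.05 for Bbc3 and 3.04 for Eda2r, on the log2 scale. Beside 42.2% of all genes, 4 of 9 is near the background.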

How the results depend on the processing

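Of the values for single genes, 2995 kept direction and side of the threshold over the alternatives, 103 lost their call, 6 gained one and 44 reversed, and of the counts 142 stayed within 1.5 times and 20 moved. The reversals are of differences that passed no test, most of them near 0 and Cdkn1a in tumors (-1.05) not, and the cause was not tested. In tumors, the genes described here that passed numbered 1 without the batch term and 0 to 1 with each tumor left out, while over all genes 9 calls became 924 without the batch term, 20 with median-centred values, 316 without GTS replicate 3 and 583 without GTS replicate 2, against 2 to 11 without any other tumor. Leaving out each line sample gave 3 to 5 genes for DOX in GTML3 and 5 to 8 between lines under DMSO. Leaving out each tumor gave 3 to 8 correlated pairs.

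For regions, limma on log2(CPM + 1) with duplicates as separate libraries called 1 for DOX in preGTS1, 3 for DOX in GTML3 and 3 between lines under DMSO. Within 1 kb of a start the regions past 2-fold were 1, 3 and 4 in the same order, 4 in GTS1 and 7 in GTS2, where fewer regions are counted. At 1.5-fold DOX in preGTS1 gave 11, and leaving out a duplicate 3 to 8.

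Median-centred values turned Bax in tumors to 0.080, Mdm2 and Ccng1 for DOX in GTML3 to -0.0069 and -0.038, and Zmat3 between lines under DMSO to -0.10. With edgeR, Ccng1 for DOX in GTML3 was -8.1e-05 and Zmat3 between lines under DMSO -0.00094. With DESeq2, Mdm2 for DOX in preGTS1 was 0.050, the interaction 0.0088 for Mdm2 and 0.0087 for Zmat3, and Zmat3 between lines under DMSO -0.063. Leaving out samples, tumor differences ran from -2.19 to 0.59 for Cdkn1a, -0.083 to 0.14 for Bax and -0.25 to 0.16 for Bbc3. For DOX in preGTS1 they ran from -0.085 to 0.061 for Mdm2 and -0.094 to 0.38 for Bax, and in GTML3 from -0.022 to 0.073 for Mdm2 and -0.055 to 0.052 for Ccng1. Interactions ran from -0.12 to 0.028 for Mdm2 and -0.17 to 0.18 for Zmat3. Between lines they ran from -0.11 to 0.076 for Ccng1 and -0.16 to 0.19 for Zmat3 under DOX, and -0.033 to 0.076 for Zmat3 under DMSO.

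With a block for the replicate number, 4 genes passed for DOX in GTML3 and 7 between lines under DMSO. Same-numbered samples had correlations of -0.0552, -0.0226 and 0.0137 in GTML3 and 0.0684, -0.1537 and -0.0631 in preGTS1, so the numbers do not pair them.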

Other observations

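In the GTML_SOX9-GFP library the 151 cells with a Trp53 UMI differed in other genes from the 4494 cells without one, a split chosen after its values were seen and given with no test. Cdkn1a had 153 CPM in the cells with a Trp53 UMI and 63.5 CPM in those without, Ccng1 59.7 and 18.2 CPM, and Bax 450 and 285 CPM, where the median depth was 13800 and 18887 UMIs per cell. A Wrap53 UMI was found in 12 of the 151 cells and in 12 of the 4494. A Sox9 UMI was found in 25.2% and 12.7% of cells, and a Neurod1 UMI, of the granule lineage, in 7.28% and 23.1%. In fGTS2 the 3222 cells with a Trp53 UMI had 163 CPM of Cdkn1a and 92.3 CPM of Ccng1, against 135 and 89.6 CPM in the 1276 cells without. The libraries share 6 cell barcodes, and mixing of cells between them was not tested.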
